A study of Arabidopsis thaliana with 6 samples.

Results

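The genes described here are the nuclear genes of Arabidopsis thaliana whose table description names a 30S or a 50S ribosomal protein and no mitochondrion, with the genes of the plastid and mitochondrial genomes left out. They number 91 of 32962 genes in the table. Their transcripts were measured by RNA sequencing of whole seedlings at 25 days of age, grown at 25 °C under days of 16 h light and 8 h dark. The groups are EsANAC029-OE (3 libraries), an Arabidopsis line with raised expression of the Elymus sibiricus gene EsANAC029, which belongs to the plant NAC family of transcription factors, and wild type Col-0 (3 libraries). Neither group received a treatment in the labels. The sources used here do not give the promoter that drives the transgene, nor whether the line is 1 clone or plants were pooled. The labels do not say that replicates came from separate plantings, so p-values measure the spread between these libraries only, and that spread may be technical. According to its title, the series concerns light responses.

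Chloroplasts make a small set of their own proteins, among them core subunits of the photosystems and the large subunit of Rubisco, on ribosomes of the bacterial type. Such a ribosome has a small (30S) and a large (50S) subunit. Some of its proteins are encoded in the plastid genome, but most come from nuclear genes, are made in the cytosol and are imported into the plastid. A few, the plastid-specific ribosomal proteins (PSRP), have no counterpart among the structural proteins of bacterial ribosomes. In leaves the nuclear genes for these proteins are among the well expressed housekeeping genes of green tissue.

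The description rule gathered genes of more than 1 kind. Of the 91 genes, 40 are listed plastid ribosome subunits, with 9 of the small subunit, 24 of the large subunit and 7 plastid-specific proteins. These 40 are called the plastid subunits below. The other 51 are mostly genes that the table describes by a bacterial or plastid homologue, such as the L19 family gene AT4G11630, and 3 of them are loci with no coding sequence. The RefSeq notes name the plastid for 29 of the 40 plastid subunits and for 8 of the 51 other members, and they name the mitochondrion for 3 of the others, so the label of plastid ribosomal protein fits the first set and only some of the second. RPL24, a plastid large subunit protein, falls outside the rule because its description mentions a mitochondrial protein family.

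Expression is given as FPKM, fragments scaled to gene length and library depth, on the scale of the deposited table. A gene was tested when it reached 1 FPKM in at least 3 libraries, which 81 of the 91 members did. Of the 10 that did not, 6 were at 0 in all 6 libraries. The tested set held 38 of the 40 plastid subunits and 43 of the 51 other members, and every tested plastid subunit was above 1 FPKM in each library. Fold changes are differences of log2(FPKM + 1), EsANAC029-OE minus Col-0, which understates changes of genes with low values. They were fitted with limma over all 17221 tested genes, and called genes are those whose p, adjusted by the Benjamini-Hochberg method over that whole set, was under 0.05.

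The 3 EsANAC029-OE libraries held 19608819 to 21688167 reads in genes, and the 3 Col-0 libraries 21121138 to 21715274. EsANAC029-OE replicate 1 stood apart. Its correlation with the Col-0 libraries over tested genes was 0.691 to 0.734, against 0.857 to 0.899 for EsANAC029-OE replicates 2 and 3, while the Col-0 libraries correlated with each other at 0.967 to 0.977. These are descriptions over genes, which are not independent. The summed level of 5 markers of green leaf (RBCS1A, LHCB1.3, RCA, CA1 and GAPA1) was 4647, 14515 and 23126 FPKM in EsANAC029-OE replicates 1, 2 and 3, against 40317, 38235 and 45659 FPKM in Col-0. All 5 were detected in every library. The 5 root markers summed to 0.193, 105 and 0.186 FPKM in EsANAC029-OE and to 1.12, 6.91 and 2.35 FPKM in Col-0. Nearly all of the sum in EsANAC029-OE replicate 2 came from 1 marker (104 FPKM), the only root marker that passed the minimum level. The 5 flower and seed markers summed to at most 0.53 FPKM in any library. In whole seedlings, fewer green cells and less RNA per cell cannot be told apart, and the part of tissue make-up in the results below was not tested.

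The transcripts of the plastid subunits were at lower levels in EsANAC029-OE than in Col-0, by very different amounts in its 3 libraries, and none passed the test. The median plastid subunit stood at 11.6%, 65.3% and 81.1% of its Col-0 mean in EsANAC029-OE replicates 1, 2 and 3. Replicate 1 held the lowest of the 6 values for 37 of the 38 tested plastid subunits, and 37 of 38 were below 50% of their Col-0 mean there, against 1 in replicate 2 and 0 in replicate 3. No plastid subunit was called, where 7.89% of all tested genes were called and 3.58% were called lower. With limma-voom the count was likewise 0, beside 4.77% of all genes. At the unadjusted level, where 28.3% of all tested genes passed in either direction, 2 plastid subunits had an unadjusted p under 0.05, both lower (background 14.7% lower). The adjusted p-values of the 38 plastid subunits ran from 0.0733 to 0.436 by limma, and the median standard error of their log2 fold changes was 0.728, so the difference was not larger than the spread among the EsANAC029-OE libraries by this test. All 38 fold changes were below 0, with a median of -1.34 and a range of -1.75 to -0.29 (log2), beside a median of -0.01 over all tested genes.

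In 30 of the 38 plastid subunits every EsANAC029-OE library was below every Col-0 library (78.9%, where 20.3% of all tested genes did so), but with libraries scaled to their total reads alone this count was 3. The share of all tested genes was not counted on that scale, where the median of all genes also moved up. The 3 therefore has no background beside it. The plastid subunits took 0.184%, 1.10% and 1.25% of all reads in genes in EsANAC029-OE replicates 1, 2 and 3, against 1.34%, 1.11% and 1.27% in Col-0. As a share of reads, only EsANAC029-OE replicate 1 was therefore outside the Col-0 range by a wide margin. The deposited scale sets EsANAC029-OE replicates 2 and 3 lower because it follows the typical gene. Scaled to total reads alone, the median of all tested genes moved to 0.31 on the log2 scale, and the median plastid subunit in EsANAC029-OE replicates 2 and 3 was at 91.7% and 105% of its Col-0 mean, beside 136% and 126% for the median of all tested genes. Relative to the median of all genes, the plastid subunits' median was -1.33 on the deposited scale and -1.28 on total reads.

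On the deposited scale, leaving out EsANAC029-OE replicate 1 brought the plastid subunits' median to -0.46, with all 38 fold changes still below 0. This fit was not run on total reads alone. On that scale the median plastid subunit in replicates 2 and 3 was at 91.7% and 105% of its Col-0 mean, beside 136% and 126% for all tested genes. Without replicate 1, 30 of 38 again did not overlap with Col-0 (background 29.2% lower). Leaving out a library cannot lower that count, and replicate 1 was the lowest library in 37 of 38. In the fit without replicate 1, 17 had an unadjusted p under 0.05 (background 19.6% lower), and 1, PSRP1, was called lower by limma (background 9.51% called lower). RPS16-1, which is not among the 38, was at -0.02 in that fit.

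**Figure D1:**
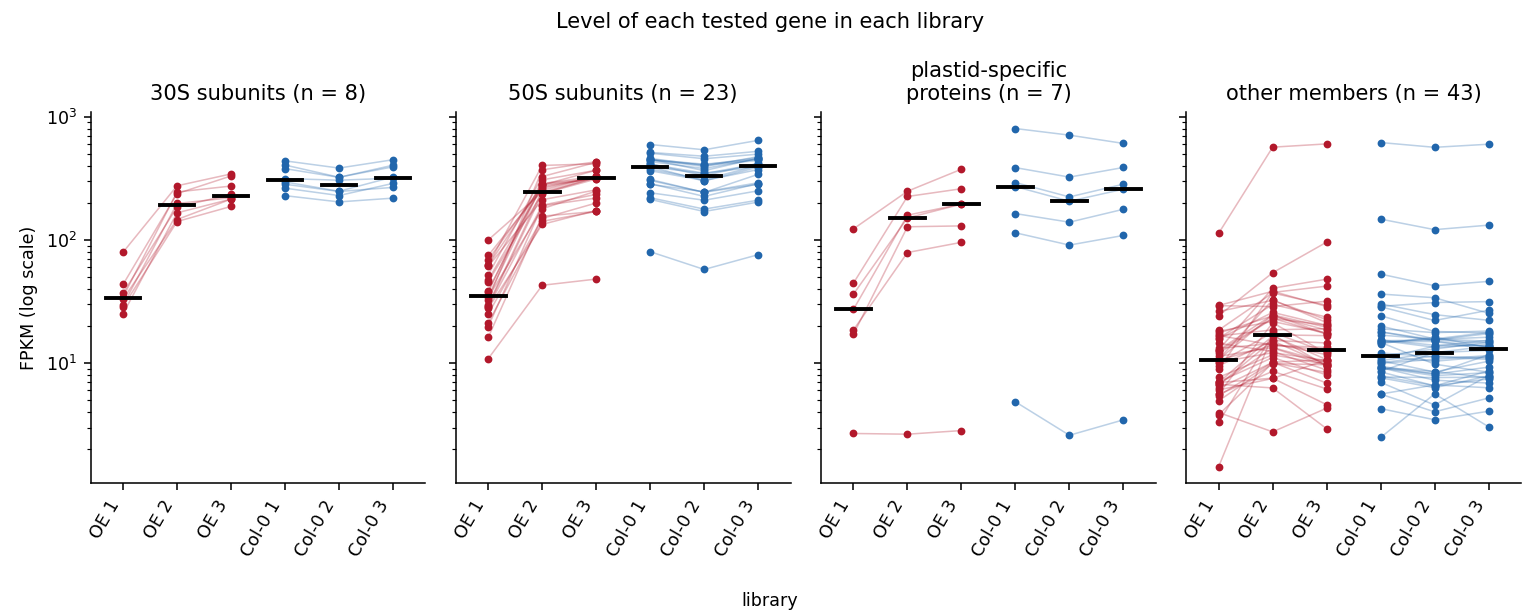
Level of each tested member in each library, in FPKM on a log axis, with EsANAC029-OE (OE) replicates in red and Col-0 replicates in blue. Points are genes, thin lines join the same gene across replicates of a group, and black bars are medians. The plastid subunits' median is 34.3, 218 and 257 FPKM in EsANAC029-OE and 370, 304 and 379 FPKM in Col-0. The other members have medians between 10.6 and 17.0 FPKM in all 6 libraries.

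The plastid subunits and the other members differed in level as well. Of the 38 plastid subunits, 33 averaged at least 200 FPKM in Col-0, and their median Col-0 mean was 354 FPKM. Of the 43 other members, 41 averaged under 50 FPKM, with a median of 11.8 FPKM. A level in FPKM is per length and can be set between genes. The 2 other members above 50 FPKM were RPS16-1 and the S1 domain gene AT3G23700, both with the plastid in their notes. The 5 plastid subunits below 200 FPKM in Col-0 were RPL19.1 (195 FPKM), PSRP6 (160 FPKM), PSRP5 (104 FPKM), RPL10 (71.2 FPKM) and PSRP3.2 (3.64 FPKM).

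**Figure D2:**
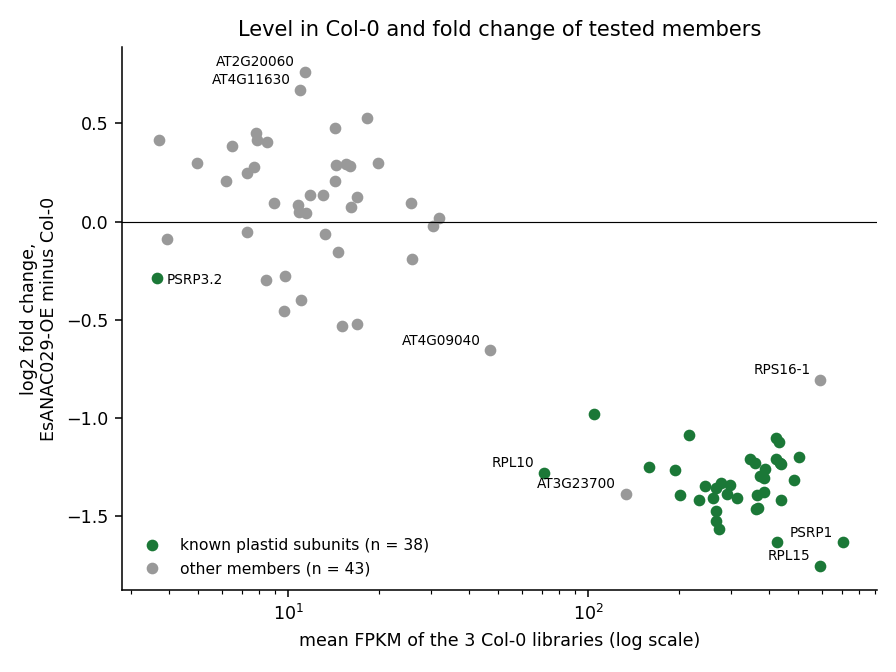
Mean FPKM of the 3 Col-0 libraries (log axis) against the log2 fold change, EsANAC029-OE minus Col-0, for the 81 tested members. Plastid subunits are green and other members grey. The plastid subunits lie between -1.75 and -0.29, and the other members between -1.39 and 0.76.

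Sequences are shown for 5 genes that span these patterns, the 200 bases before each annotated start. Whether these stretches bear on the levels was not tested. They were read from the RefSeq TAIR10.1 assembly, in which all 91 members have the coordinates of the deposited table, and the 5 genes were chosen after their values were seen. RPL15 had the lowest fold change, RPL21 is a large subunit gene near the median, PSRP1 and RPS16-1 departed from the other plastid genes, and AT4G11630 was the called member. The stretches are chr3:9492656-9492855 (minus strand), chr1:13208483-13208682 (plus), chr5:8365401-8365600 (plus), chr4:16536225-16536424 (minus) and chr4:7019464-7019663 (plus), each printed 5′ to 3′ on the strand of its gene. Capitals mark matches on either strand to TGGGCC or TGGGCT (site II elements), CACGTG (the G-box), AAACCCTA (the telo-box), GATAAG (the I-box) or CCAATC. The last of these is the CCAAT box with 1 further base.
RPL15: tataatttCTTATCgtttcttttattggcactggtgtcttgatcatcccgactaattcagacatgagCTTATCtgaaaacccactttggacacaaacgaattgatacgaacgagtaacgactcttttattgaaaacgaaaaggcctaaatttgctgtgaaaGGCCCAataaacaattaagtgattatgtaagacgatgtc
RPL21: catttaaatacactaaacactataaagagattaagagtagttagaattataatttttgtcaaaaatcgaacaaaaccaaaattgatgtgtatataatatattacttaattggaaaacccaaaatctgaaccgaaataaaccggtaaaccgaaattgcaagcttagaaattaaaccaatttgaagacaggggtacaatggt
PSRP1: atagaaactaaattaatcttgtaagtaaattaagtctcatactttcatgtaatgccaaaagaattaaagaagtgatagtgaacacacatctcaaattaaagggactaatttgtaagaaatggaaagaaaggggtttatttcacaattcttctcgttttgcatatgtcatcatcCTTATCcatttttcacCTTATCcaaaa
RPS16-1: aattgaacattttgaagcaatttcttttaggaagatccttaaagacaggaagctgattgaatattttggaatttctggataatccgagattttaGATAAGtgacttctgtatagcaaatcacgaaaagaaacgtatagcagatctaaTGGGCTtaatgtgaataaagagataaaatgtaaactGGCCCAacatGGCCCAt
AT4G11630: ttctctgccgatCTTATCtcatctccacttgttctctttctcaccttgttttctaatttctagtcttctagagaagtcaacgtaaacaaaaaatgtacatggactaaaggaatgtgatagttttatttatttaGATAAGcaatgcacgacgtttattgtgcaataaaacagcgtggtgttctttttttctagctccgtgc
RPL15 holds 2 GATAAG matches and 1 of TGGGCC, PSRP1 and AT4G11630 hold 2 GATAAG matches each, RPS16-1 holds 2 of TGGGCC, 1 of TGGGCT and 1 of GATAAG, and RPL21 holds none of the 6.

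Over all members with a stretch, TGGGCC or TGGGCT stood in 37.5% of 40 plastid subunits and 45.8% of 48 other members, beside 64.4% of 236 cytosolic ribosomal protein genes and 17.6% of 27419 nuclear protein-coding genes. GATAAG stood in 20% of the plastid subunits and 12.5% of the other members, against 9.95% of all genes. CACGTG stood in 7.5% of the plastid subunits and 2.08% of the other members, against 5.63% of all genes. AAACCCTA was found in 7.5% of the plastid subunits and in 0 of 48 other members, against 3.71% of all genes and 18.2% of cytosolic ribosomal protein genes. CCAATC was in 10% of the plastid subunits and 12.5% of the other members, against 8.43% of all genes. Matches were counted on both strands and may overlap one another. A match is a run of letters, not a bound site.

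In the small subunit, 8 of 9 genes were tested and 6 of these were lower in EsANAC029-OE with no overlap on the deposited scale (background 20.3%), with a median log2 fold change of -1.40. On total reads alone 3 of the 38 plastid subunits of all kinds did not overlap, with no share of all genes counted on that scale. The statements of no overlap below therefore hold for the deposited scale. RPS1 (AT5G30510), whose bacterial homologue helps to bring messenger RNA to the ribosome, had 79.4, 275 and 343 FPKM in EsANAC029-OE replicates 1, 2 and 3, against 438, 383 and 447 FPKM in Col-0. All EsANAC029-OE values were below all Col-0 values, and replicate 1 was far below the rest. The log2 fold change of RPS1 was -1.10 (SE 0.558, adjusted p = 0.251 by limma), and -0.46 without EsANAC029-OE replicate 1 (adjusted p = 0.137). RPS21 (AT3G27160, also named GHS1, whose mutant is hypersensitive to glucose) had 28.7, 141 and 187 FPKM in EsANAC029-OE and 283, 247 and 267 FPKM in Col-0, again with no overlap. Its log2 fold change of -1.52 (SE 0.681, adjusted p = 0.204 by limma) was the most negative of the small subunit genes.

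The gene of the elongation factor EF-Tu (AT4G20360), which every green cell uses, was listed at 0 in 5 libraries and at 0.0272 FPKM in Col-0 replicate 2. It is overlapped over 2333 bases by AT4G20362. Whether its reads were lost as ambiguous was not tested, since no source used here gives the counter or its strand setting, and the zeros are not read as absence.

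In the large subunit, 23 of 24 genes were tested and 19 of these were lower with no overlap on the deposited scale (background 20.3%). Their median log2 fold change was -1.32. On total reads alone 3 of all 38 plastid subunits did not overlap, with no share of all genes counted. RPL15 (AT3G25920, chr3:9491055-9492655) had the lowest EsANAC029-OE replicate 1 value of any plastid subunit relative to Col-0. It had 32.8, 370 and 431 FPKM in EsANAC029-OE, against 594, 539 and 642 FPKM in Col-0, with no overlap. Replicate 1 was at 5.55% of the Col-0 mean, while replicates 2 and 3 were at 62.6% and 72.9%, close to the typical plastid subunit. Its log2 fold change of -1.75 had a wide error (SE 0.97, 95% interval -4.10 to 0.60, limma adjusted p = 0.289), and -0.56 (SE 0.18) without EsANAC029-OE replicate 1.

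RPL34 (AT1G29070) had 29.8, 253 and 329 FPKM in EsANAC029-OE and 451, 365 and 460 FPKM in Col-0. RPL11 (AT1G32990), part of the factor-binding region of the large subunit, had 25.1, 149 and 199 FPKM in EsANAC029-OE and 282, 246 and 291 FPKM in Col-0. Neither gene overlapped between groups, and their log2 fold changes were -1.63 (SE 0.886) and -1.57 (SE 0.753). RPL4 (AT1G07320), which lines the exit tunnel in bacterial ribosomes, had 28.4, 191 and 234 FPKM in EsANAC029-OE and 303, 244 and 282 FPKM in Col-0. RPL21 (AT1G35680), whose loss arrests embryos, had 47.4, 269 and 322 FPKM in EsANAC029-OE and 414, 332 and 418 FPKM in Col-0. Both were lower in every EsANAC029-OE library, with log2 fold changes of -1.33 (SE 0.782) and -1.26 (SE 0.724) and limma adjusted p-values of 0.314 and 0.304. RPL1 (AT3G63490), the protein of the mobile L1 stalk, kept the largest share of the large subunit genes in replicate 1, at 23.0% of its Col-0 mean. It was named after its values were seen, and had 99.9, 244 and 321 FPKM in EsANAC029-OE and 458, 402 and 441 FPKM in Col-0.

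The stalk protein L12, which recruits translation factors, is encoded by 3 listed genes. RPL12A had 61.0, 212 and 255 FPKM in EsANAC029-OE and 364, 303 and 372 FPKM in Col-0, with no overlap. RPL12C had 45.9, 238 and 321 FPKM in EsANAC029-OE and 392, 301 and 389 FPKM in Col-0, with EsANAC029-OE replicate 3 inside the Col-0 range. RPL12B was listed at 0 in all 6 libraries. The coding sequences of RPL12A and RPL12C matched at 92.04% of 578 aligned bases, so reads may have been split between them, and their separate values are uncertain. RPL24 (AT5G54600), outside the rule, had 56.7, 256 and 338 FPKM in EsANAC029-OE and 472, 448 and 464 FPKM in Col-0, and its log2 fold change of -1.43 (SE 0.661, limma adjusted p = 0.217) lay within the range of the large subunit genes.

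**Figure D3:**
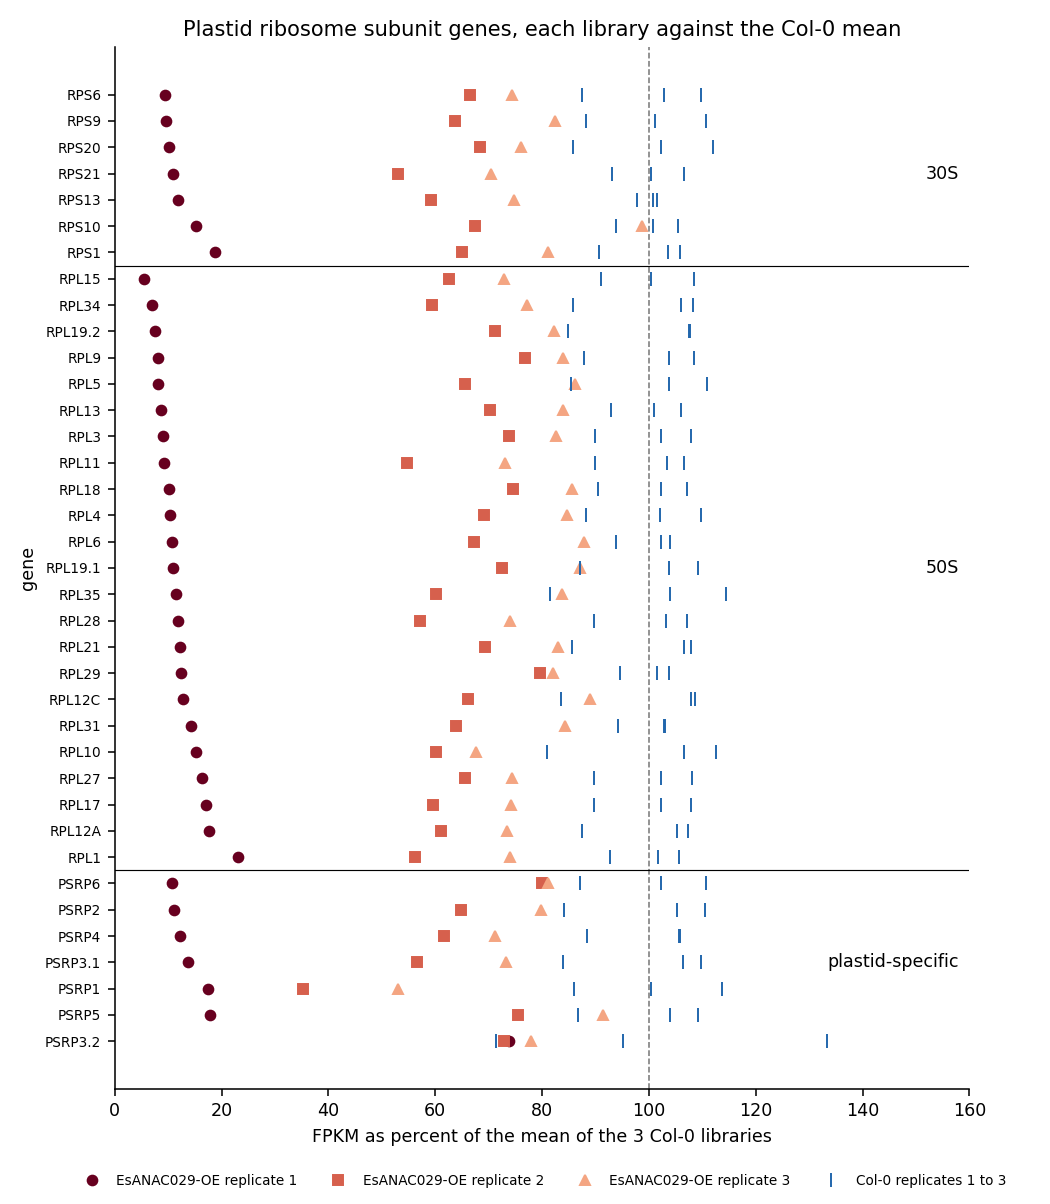
FPKM of 37 of the 38 tested plastid subunits in each library as a percent of the mean of the 3 Col-0 libraries. Filled symbols are the EsANAC029-OE replicates, blue bars the Col-0 replicates, and the dashed line is 100%. The 1 tested subunit that is not drawn lies inside the ranges that follow. In EsANAC029-OE replicate 1 the genes lie at 5.55% to 73.8%, in replicate 2 at 35.2% to 79.9% and in replicate 3 at 53.1% to 98.8%, on the deposited scale. On total reads alone the medians of replicates 2 and 3 are 91.7% and 105%.

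Among the plastid-specific proteins, PSRP1 (AT5G24490, chr5:8365601-8367460) differed from the other plastid subunits. Related to bacterial factors that keep ribosomes idle, it binds ribosomes rather than forming part of their structure. PSRP1 had 123, 248 and 374 FPKM in EsANAC029-OE and 801, 708 and 606 FPKM in Col-0, the highest Col-0 level of the members. No EsANAC029-OE value reached the Col-0 values. It stood at 17.4%, 35.2% and 53.1% of its Col-0 mean, which in replicates 2 and 3 is the lowest of the plastid subunits and in replicate 1 is above their median of 11.6%. On the log2 scale it differed by -1.63 (SE 0.44, 95% interval -2.70 to -0.57, limma adjusted p = 0.0733). Without EsANAC029-OE replicate 1 the fold change was -1.20 and it was called (SE 0.248, adjusted p = 0.0315), and over the other alternatives its adjusted p ran from 0.0305 to 0.218.

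PSRP5 (AT3G56910), a large subunit protein, had 18.6, 78.9 and 95.5 FPKM in EsANAC029-OE and 114, 90.7 and 109 FPKM in Col-0, with replicate 3 inside the Col-0 range. PSRP3.2 (AT5G15760) was the plastid subunit with the lowest level and the smallest fold change, -0.29 (SE 0.222). It had 2.68, 2.65 and 2.83 FPKM in EsANAC029-OE and 4.85, 2.60 and 3.46 FPKM in Col-0, and the groups overlapped. Its paralogue PSRP3.1 (AT1G68590), with 36.3, 151 and 195 FPKM in EsANAC029-OE against 292, 223 and 283 FPKM in Col-0, followed the other subunits. The 2 coding sequences aligned over 252 bases at 78.6% identity. PSRP3.1 was named after its values were seen.

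The other members did not share this pattern. Their median log2 fold change was 0.09, with 15 of 43 below 0, and in 35 of 43 the groups overlapped. In EsANAC029-OE replicates 1, 2 and 3 the median other member stood at 85.5%, 142% and 110% of its Col-0 mean. For the 7 tested other members whose notes name the plastid, these medians were 45.0%, 107% and 102%, and 3 of the 7 fold changes were below 0. In replicate 1, 27 of 43 were below every Col-0 library and 11 above, whereas in replicate 2, 6 were below and 30 above. The share of all tested genes on each side was not counted for single libraries. These counts are therefore not read as particular to the other members. Scaled to total reads alone their median was 0.45 and 7 of 43 were below 0, so the number on each side of 0 moved with the scale. Relative to all genes their median was 0.10 on the deposited scale and 0.14 on total reads. Of the 43, 6 were higher in every EsANAC029-OE library than in every Col-0 library (background 19.6%) and 2 lower (background 20.3%). At an unadjusted p under 0.05, 5 of 43 were higher (background 13.6%) and 1 lower (background 14.7%).

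AT4G11630 (chr4:7019664-7021348), an L19 family gene, was the only member of the 91 called in the fit to all 6 libraries (4.31% of all tested genes were called higher). It had 16.6, 18.6 and 19.0 FPKM in EsANAC029-OE and 11.3, 10.4 and 11.3 FPKM in Col-0, and every EsANAC029-OE value was above every Col-0 value. It was higher by 0.67 on the log2 scale (SE 0.143, 95% interval 0.33 to 1.02, limma adjusted p = 0.0434). The call was lost with limma-voom (adjusted p = 0.0586), with no filter on low values (adjusted p = 0.0545) and when any library other than EsANAC029-OE replicate 1 was left out (adjusted p of 0.0842 to 0.179). Its coding sequence matched that of AT1G24240, a second L19 family gene, at 93.1% of 682 aligned bases, so that reads may have been split between them. AT1G24240 had 5.57, 8.57 and 6.17 FPKM in EsANAC029-OE and 9.23, 8.54 and 7.59 FPKM in Col-0, with overlap between groups.

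AT2G20060, an L4 family gene whose notes name the plastid, had the highest fold change of the members, 0.76 (SE 0.175, limma adjusted p = 0.0519). It had 17.5, 24.2 and 18.5 FPKM in EsANAC029-OE and 12.1, 11.2 and 10.7 FPKM in Col-0, with no overlap. AT5G66860, an L25 family gene whose notes name the mitochondrion, had 26.2, 32.3 and 22.5 FPKM in EsANAC029-OE and 19.0, 17.7 and 18.2 FPKM in Col-0. The groups did not overlap in it, nor in AT1G64880 (log2 fold change 0.47) and AT1G15810 (S15 family, 0.45), and none of these was called. Without EsANAC029-OE replicate 1, 20 other members were above every Col-0 library (background 24.7%) and 5 were called higher by limma (background 6.85%), among them AT2G20060 (adjusted p = 0.023), AT4G11630 (adjusted p = 0.018), AT1G64880 (adjusted p = 0.0411) and RFC3 (AT3G17170, adjusted p = 0.0231), a gene of the S6 family. RFC3, named after its values were seen, had 8.98, 37.4 and 42.1 FPKM in EsANAC029-OE and 24.3, 18.1 and 17.5 FPKM in Col-0. Its EsANAC029-OE replicates lay on both sides of Col-0, with replicate 1 below all Col-0 values and replicates 2 and 3 above them.

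Among the other members, 2 were at the level of plastid subunits. RPS16-1 (AT4G34620), which encodes a small subunit protein that in other plants comes from the plastid genome, had 113, 565 and 601 FPKM in EsANAC029-OE and 617, 564 and 597 FPKM in Col-0. Only replicate 1 was low, while replicates 2 and 3 were at 95.4% and 101%. RPS16-1 differed by -0.81 on the log2 scale (SE 0.665, limma adjusted p = 0.467), and -0.02 without EsANAC029-OE replicate 1. AT3G23700, described as a nucleic acid-binding protein similar to bacterial S1 and named after its values were seen, had 24.2, 54.1 and 95.9 FPKM in EsANAC029-OE and 147, 121 and 132 FPKM in Col-0. All its EsANAC029-OE values were below Col-0, and the difference was -1.39 on the log2 scale (SE 0.475, limma adjusted p = 0.123). The lowest levels among tested members, besides PSRP3.2, were those of AT3G17626 (2.77 to 4.31 FPKM over the 6 libraries) and AT5G16200 (2.49 to 6.73 FPKM), whose groups overlapped.

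**Figure D4:**
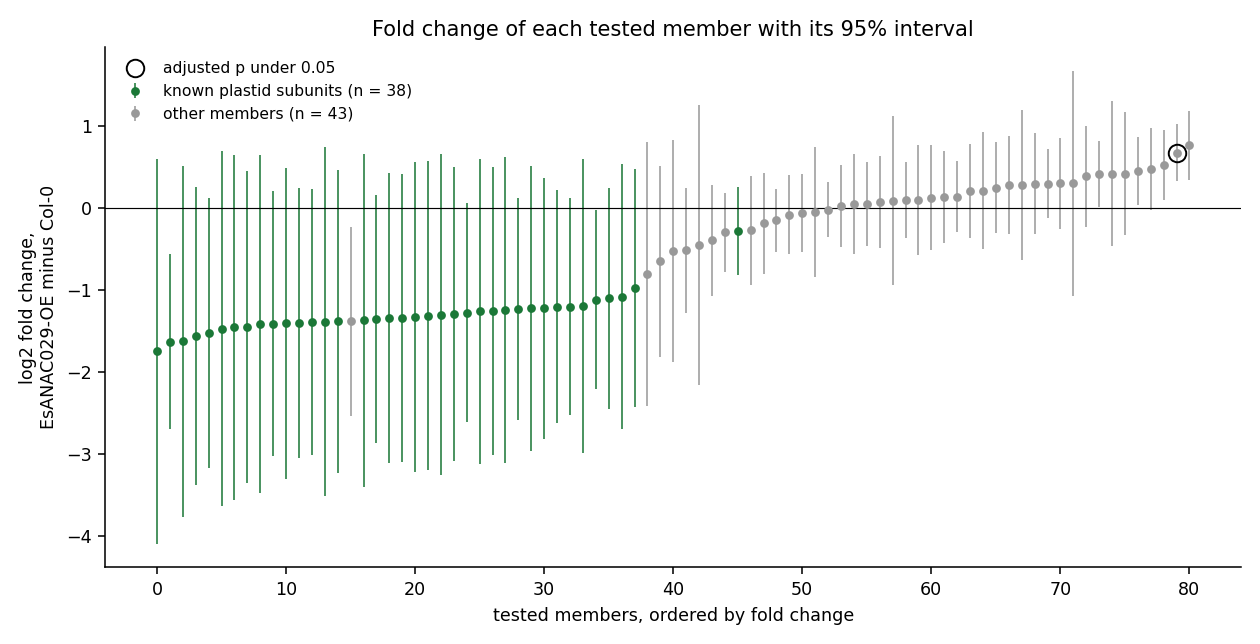
Log2 fold change, EsANAC029-OE minus Col-0, of the 81 tested members with 95% intervals from limma, ordered from lowest to highest. Plastid subunits are green, other members grey, and the open ring marks AT4G11630, the member with an adjusted p under 0.05. Of the plastid subunits' intervals, 2 of 38 lie wholly below 0.

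The plastid genome encodes the remaining proteins of the same ribosome. Of 26 such genes 17 were tested, all 17 fold changes were below 0 with a median of -1.24, and 3 were called lower (background 3.58%). These were rpl2-A (ATCG01310), RPS14 (ATCG00330) and RPS2 (ATCG00160). The minimum of 1 FPKM in 3 libraries can be met by the Col-0 libraries alone, and the lowest Col-0 mean was 1.25 FPKM. With a Col-0 library left out 15 or 16 genes were tested, and with an EsANAC029-OE library left out 16 or 17. Some genes may therefore have passed through Col-0 only, and the count below 0 is not independent of the filter. RPS14 had 5.03, 1.90 and 5.13 FPKM in EsANAC029-OE and 17.0, 15.0 and 14.0 FPKM in Col-0 (log2 fold change -1.78, SE 0.321, limma adjusted p = 0.0313). For rpl2-A the values were 2.53, 2.42 and 4.20 FPKM in EsANAC029-OE and 11.04, 11.9 and 9.01 FPKM in Col-0 (-1.54, SE 0.227, adjusted p = 0.0203). All 3 calls were lost when any Col-0 library was left out (limma adjusted p of 0.0944 to 0.163), those of RPS14 and RPS2 also with limma-voom (0.0538 and 0.0668) and with no filter on low values (0.0517 and 0.0583), that of RPS2 with a pseudocount of 0.1 (0.0556), and those of rpl2-A and RPS2 without EsANAC029-OE replicate 2 (0.0691 and 0.103). The groups did not overlap in either gene, and EsANAC029-OE replicate 1 did not stand apart in them as it did in the nuclear genes. The median plastid-encoded gene was 1.68, 1.43 and 0.39 below its Col-0 mean in log2(FPKM + 1) in EsANAC029-OE replicates 1, 2 and 3. For the nuclear plastid subunits these values were 3.07, 0.61 and 0.29. The added 1 FPKM shrinks this measure more for the plastid-encoded genes, whose median Col-0 mean was 6.05 FPKM. As percent of the Col-0 mean the medians were 16.8%, 26.7% and 72.6%, against 11.6%, 65.3% and 81.1% for the nuclear plastid subunits. Replicate 1 was thus low in both lists, and the difference between the lists was not tested. The sources used here do not say how plastid transcripts were captured.

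Cytosolic ribosomal proteins, which make up the ribosomes that translate nuclear messages, had a higher median in EsANAC029-OE replicates 2 and 3 than in Col-0. Of 208 tested genes 5 were called higher (background 4.31%) and 2 lower (background 3.58%), both below the share among all genes. The median log2 fold change was 0.45, and 69 were higher in every EsANAC029-OE library (background 19.6%). RPL31A (AT2G19740) had 83.0, 97.8 and 89.9 FPKM in EsANAC029-OE and 46.7, 36.8 and 39.0 FPKM in Col-0 (log2 fold change 1.13, SE 0.17, limma adjusted p = 0.0215). That call was lost without EsANAC029-OE replicate 2 or any Col-0 library (adjusted p of 0.0704 to 0.124). In EsANAC029-OE replicate 1 the median cytosolic gene was 0.02 above its Col-0 mean on the log2 scale, against 1.02 and 0.39 in replicates 2 and 3. Without EsANAC029-OE replicate 1, 34 of 208 cytosolic genes were called, 32 of them higher (background 6.85% called higher). The 33 tested mitochondrial ribosomal proteins, a list that by its wording also holds RPL24 and shares 7 genes with the cytosolic list, had a median of 0.14. None was called by limma or by limma-voom, and 2 had an unadjusted p under 0.05, both higher (background 13.6% higher).

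Plastid translation factors, which start, extend and end protein synthesis on the plastid ribosome, also had lower levels. All 12 tested of 13 had fold changes below 0, with a median of -0.93. None was called by limma or limma-voom, and 5 had an unadjusted p under 0.05, all lower (background 14.7% lower). Without EsANAC029-OE replicate 1, 3 were called lower by limma (background 9.51%). EF-G (AT1G62750), which moves the ribosome along the message, had 58.8, 91.9 and 162 FPKM in EsANAC029-OE and 227, 166 and 186 FPKM in Col-0, with no overlap (log2 fold change -0.99, SE 0.385, limma adjusted p = 0.157). Assembly and RNA-processing factors of the plastid ribosome numbered 20, all tested, with a median of -0.44 and 17 below 0. None was called by limma or limma-voom, and 3 had an unadjusted p under 0.05 (background 28.3% in either direction). Without EsANAC029-OE replicate 1 the median was 0.02, 9 of 20 were below 0 and 1 was called lower (background 9.51%). RH3 (AT5G26742), an RNA helicase of ribosome assembly, had 74.8, 130 and 198 FPKM in EsANAC029-OE and 159, 122 and 123 FPKM in Col-0. Its EsANAC029-OE replicate 1 was below Col-0 and replicate 3 above, and its log2 fold change of -0.10 (SE 0.371) turned to 0.26 without replicate 1 and on total reads alone.

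**Figure D5:**
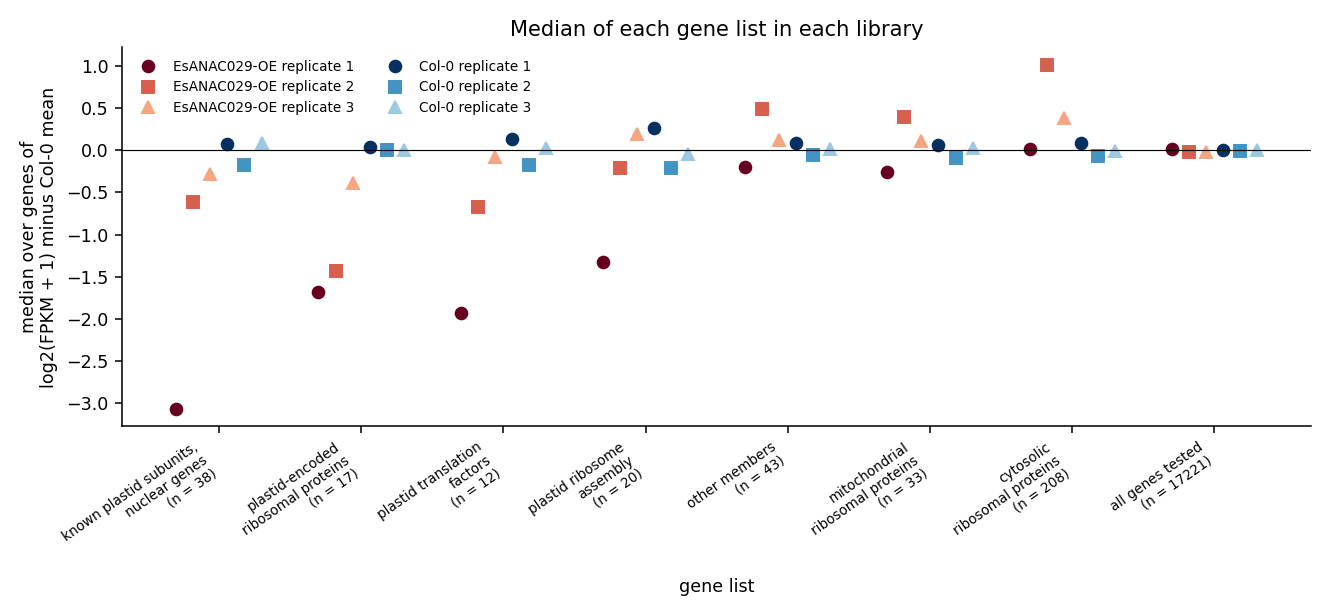
Median over tested genes of log2(FPKM + 1) minus the Col-0 mean of each gene, for 8 gene lists in each library, on the deposited scale. EsANAC029-OE replicates are in reds and Col-0 replicates in blues. The nuclear plastid subunits lie at -3.07, -0.61 and -0.29 in EsANAC029-OE, the cytosolic ribosomal proteins at 0.02, 1.02 and 0.39, and all tested genes near 0.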

How the data were processed

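Total RNA of seedlings from 3 EsANAC029-OE and 3 Col-0 samples was sequenced in pairs of 150 bp reads, per the labels' protocols. Per the submitters' processing notes, the tools were edgeR, HISAT2 and CASAVA 1.8, and the genome TAIR10. The sources used here do not give the counter, its strand setting or the annotation release. The deposited FPKM values are per gene length and per scaled library, and the deposited gene length (unit: other) is in bases. No unit stands in the header. FPKM was inferred because each value multiplied by length gave whole multiples of 1 step per library (100% within 1e-06). That gave the reads per gene, and showed that the deposited scale is the total times a median-of-ratios factor.

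Values were transformed as log2(FPKM + 1), 17221 of 32962 genes passed a minimum of 1 FPKM in 3 libraries, and genotype was fitted with limma 3.58.1 (trended variance, two-sided, Benjamini-Hochberg) in R 4.3.3. The fit was run on simulated counts drawn from Col-0 gene means with the same dispersion in every library. These held no outlying library, so they do not show how the fit handles EsANAC029-OE replicate 1. Log values of normalized expression were tested because the deposited table holds FPKM. Reads in genes numbered 19608819 to 21715274 per library. The members and lists were chosen with earlier results of these data known, and no list was tested as a set. Named genes are called members, the 5 lowest and 5 highest fold changes, the 3 highest and 3 lowest levels, 16 genes fixed whatever their values, and up to 3 called genes of each other list, of which some are not reported here. Coding sequences were compared with blastn. Alternatives were a pseudocount of 0.1, no filter, total reads alone, trimmed-mean scaling, limma-voom on the recovered reads, library weights, a replicate block and leaving out each library. Same-numbered libraries did not deviate together (correlations of -0.199, -0.0531 and -0.105), and other pairings gave -0.318 to 0.36. The numbers were not taken as pairs, though with 3 libraries a group this cannot exclude pairing.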

Additional observations from a re-analysis of the deposited data

How the results depend on the processing

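The count of called members, 1 in the fit reported, was 0 with no filter, with limma-voom, with the replicate block and with the subunit lists in place of the description rule, 2 with trimmed-mean scaling, 4 with library weights, 5 on total reads alone and 0 to 6 when a library was left out. Plastid-encoded genes, with 3 called, gave 1 with no filter or limma-voom, 0 with the replicate block and 0 to 9 when a library was left out. Cytosolic genes, with 7 called, gave 22 on total reads alone, 36 with library weights, 0 with the replicate block and 0 to 34. Mitochondrial genes, with 0, gave 1 on total reads alone or with library weights and 0 to 1 when a library was left out, translation factors gave 2 with library weights and 0 to 3, and assembly factors gave 1 with library weights and 0 to 1. Over all genes, 1359 called became 819 with no filter, 3126 on total reads alone, 821 with limma-voom, 2973 with library weights, 16 with the replicate block and 59 to 2748 when a library was left out, highest without EsANAC029-OE replicate 1. The labels do not say whether same-numbered samples form pairs, and the correlations between them cannot exclude it. Whether the fit with the block suits the design better was not tested. The 30 plastid subunits lower in every EsANAC029-OE library became 3 on total reads alone, where the share of all genes was not counted. The plastid subunits' median log2 fold change stayed below 0 in each alternative run, from -1.86 without EsANAC029-OE replicate 3 to -0.46 without replicate 1. No run combined total reads alone with a library left out. Of 390 values of the 30 named genes under the alternatives, 6 changed sign. AT3G17626 (-0.09 in the fit reported) gave 0.20 on total reads alone and -0.19 to 0.061 when a library was left out, above 0 without EsANAC029-OE replicate 2. RH3 (-0.10) gave 0.26 on total reads alone, 0.28 with library weights and -0.44 to 0.26 when a library was left out, above 0 without EsANAC029-OE replicate 1 or Col-0 replicate 1. The cause of these changes was not tested. Depth limits genes near 1 FPKM more than the plastid subunits.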
